A study of Bos taurus with 38 samples.

Results

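Transcript abundance of 6 cattle genes that encode carriers and a channel was followed in single oocytes and in the cumulus cells around them. The genes were the zinc importers SLC39A11 (ENSBTAG00000018837) and SLC39A13 (ENSBTAG00000019436), the amino acid transporter SLC7A5 (ENSBTAG00000006731), the potassium channel KCNH2 (ENSBTAG00000004078), the mitochondrial carrier SLC25A25 (ENSBTAG00000011912) and the anion transporter SLC17A3 (ENSBTAG00000003797). They are 6 of the 27607 identifiers counted in each compartment. SLC39A11, SLC39A13, SLC7A5 and KCNH2 were chosen because they were the transmembrane transport genes listed for their cumulus abundance by BCB class, SLC17A3 for its oocyte abundance by BCB class, and SLC25A25 for its co-expression with oocyte MMP25. Oocyte KCNH2 had also been listed as co-expressed with a cumulus gene. Those measures chose the genes, so they are described below without a test. The difference between compartments, the runs of complex numbers and the BCB contrast in the other compartment were not used in the choice.

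Complexes came from antral follicles of abattoir ovaries (Bos taurus) and were sorted before maturation with brilliant cresyl blue (BCB), a dye that stays blue in the ooplasm of oocytes that have completed growth. There were 9 BCB positive (BCB+) and 10 BCB negative (BCB−) complexes, each giving 1 library from the oocyte and 1 from its own cumulus cells, 38 libraries in all. No animal was identified for a complex, so p-values measure the spread between complexes, some of which may share a donor. Complex numbers fall in runs of 6 to 24 (3 BCB+ and 1 BCB−), 65 to 74 (6 BCB+ and 3 BCB−) and 86 to 91 (6 BCB−), and the labels do not say what a number marks.

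Cytosolic zinc is set by importers of the SLC39 family, which bring zinc into the cytosol from outside the cell or from organelles, and by exporters of the SLC30 family, which move it out of the cytosol. Mammalian oocytes take up zinc while they mature and release it at fertilisation. The cumulus cells, joined to the oocyte by gap junctions, take up amino acids that the oocyte transports poorly. SLC7A5 carries large neutral amino acids as a dimer with the heavy chain SLC3A2, KCNH2 is the pore of a voltage-gated potassium channel known from the heart, SLC25A25 exchanges ATP-Mg for phosphate across the inner mitochondrial membrane, and SLC17A3 carries organic anions such as urate, chiefly in kidney.

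Levels are given as CPM, the count scaled to the library total, with that total corrected by the trimmed mean of M values (TMM) within a compartment. Such levels cannot be set side by side between compartments, and where both compartments are compared the CPM is that of a TMM scaling over all 38 libraries, called jointly scaled. The levels of 2 genes are not compared, since CPM is not corrected for length. Library totals ran from 1103200 to 10430148 counts in cumulus cells and from 8886070 to 29810354 in oocytes. In cumulus cells both the total and the TMM factor moved with BCB class. The median total was 5853816 in BCB+ and 2252271 in BCB−, and the factor was 1.09 to 1.28 in BCB+ and 0.538 to 1.16 in BCB−. With library totals alone the median gene was 0.46 higher in BCB+ cumulus cells on the log2 scale, against −0.01 with TMM. The summed level of 8 cumulus and granulosa markers was 8769 to 23394 CPM in BCB+ and 9069 to 16169 in BCB− cumulus cells. The summed level of 4 oocyte markers there was 20.0 to 105 CPM in BCB+ and 6.25 to 179 in BCB−, most of it KIT, which ran from 3.99 to 167 CPM. Among oocytes, the library of complex 72 (BCB+) stood apart, with 2568 CPM of the cumulus markers against a median of 162 over all 19 oocytes. Most of that median was SERPINE2 and VCAN, with medians of 90.2 and 53.1 CPM in oocytes and lowest values of 53.2 and 29.4. INHA and INHBA had oocyte medians of 4.40 and 6.17 CPM. Among cumulus cells, complex 68 (BCB−) had the fewest counts and the most ZP2, a zona pellucida gene, at 43.8 CPM against a median of 0.138. In samples of many cells, fewer cells of a type and less RNA per cell cannot be told apart.

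Both KCNH2 and SLC39A13 were higher in cumulus cells than in oocytes at a false discovery rate (FDR) below 0.01. They are the genes of the 6 that stood above the filter on low counts (2 CPM in at least 9 of 19 libraries) in both compartments. The log2 difference was 4.86 ± 0.30 (SE) for KCNH2 (edgeR's quasi-likelihood test, FDR = 7.28e-18) and 1.10 ± 0.12 for SLC39A13 (FDR = 6.03e-11). Of the 10281 genes above the filter in both compartments, 84.8% were called, 41.2% higher in cumulus cells and 43.6% lower. Of all 14898 genes in the fit 88.4% were called, 42.2% higher in cumulus cells and 46.2% lower.

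The other 4 genes passed the filter in 1 compartment only, where they are high, so that a difference was built into their presence in the fit and their values are given as a description. SLC25A25 was above 2 CPM in 1 of 19 oocyte libraries, SLC39A11 in 4 and SLC7A5 in 5, and SLC17A3 in 1 of 19 cumulus libraries. Cumulus cells minus oocytes, their log2 differences were 5.12 ± 0.34 (SE) for SLC25A25, 3.99 ± 0.24 for SLC39A11, 3.70 ± 0.35 for SLC7A5 and −6.57 ± 0.49 for SLC17A3. The median over all genes was −0.14 with TMM and −0.55 with library totals alone, and no gene among the 6 had another sign with either. The difference of SLC39A13 was 0.69 ± 0.13 with library totals alone.

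**Figure D1:**
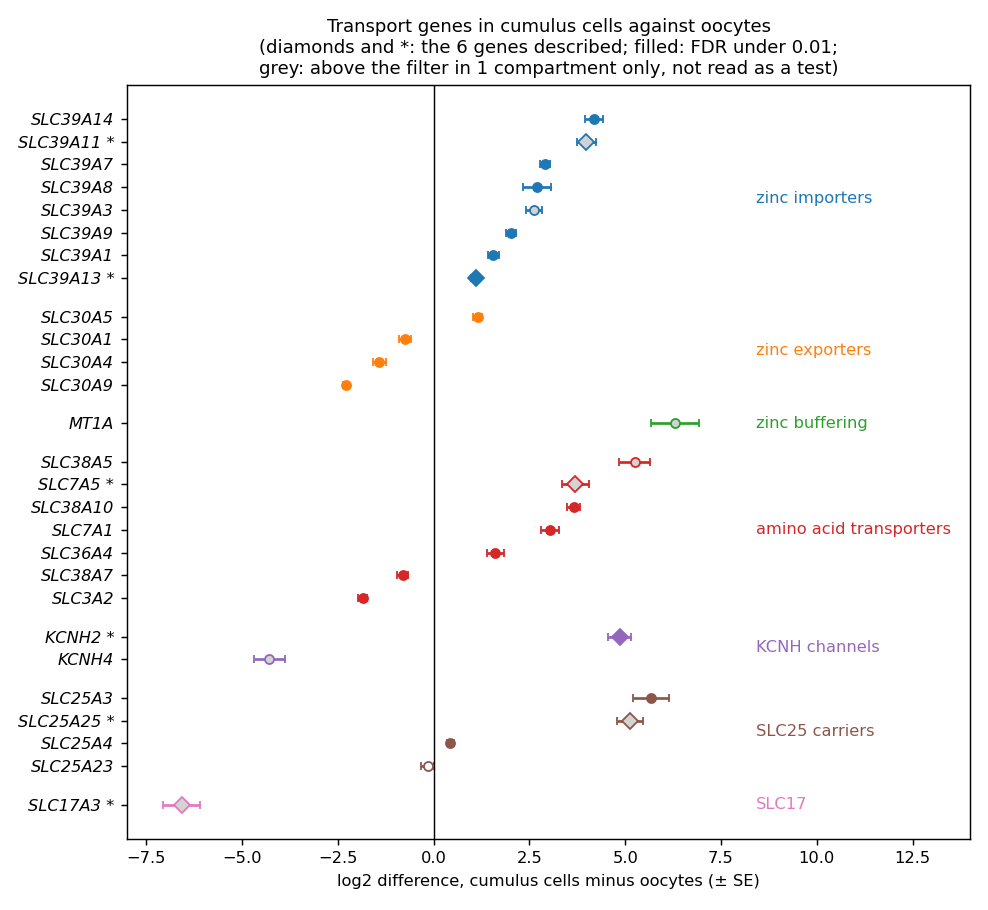
Log2 difference between cumulus cells and oocytes (x axis, positive when higher in cumulus cells) with its standard error for the 6 genes (diamonds) and the other named genes of 7 lists of transport genes, over 38 libraries, with filled symbols at an FDR below 0.01 and grey symbols for genes above the filter in 1 compartment only. The 6 filled zinc importers lie right of 0, 3 of 4 zinc exporters lie left of it, and SLC3A2, the partner of SLC7A5, lies at −1.85.

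SLC39A13, an importer of the early secretory pathway, was the gene of the 6 whose levels in cumulus cells and oocytes lay closest. In BCB+ cumulus cells its lowest, median and highest levels were 34.6, 39.9 and 57.0 CPM. In BCB− cumulus cells they were 20.2, 27.3 and 40.5 CPM. The highest BCB− value belonged to complex 68, where it rests on 24 counts, and 9 of 10 BCB− libraries lay below the lowest BCB+ library. The means were 44.4 ± 7.59 (SD, n = 9) and 28.4 ± 6.34 CPM (n = 10), a log2 difference of 0.65 ± 0.14 (SE) that is given as a description.

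In oocytes, SLC39A13 did not follow that order. BCB+ oocytes had 13.8, 18.8 and 30.3 CPM as lowest, median and highest values, and BCB− oocytes 12.3, 25.2 and 35.5 CPM. The 2 classes overlapped over nearly their whole range, and the log2 difference of −0.23 ± 0.18 (SE) did not pass the test (edgeR, FDR = 0.91), in a comparison where 0% of 12753 genes passed. The 3 BCB+ oocytes of complexes 17, 19 and 24 had 13.8, 15.9 and 16.4 CPM, and the 6 BCB+ oocytes of complexes 69 to 74 had 18.6 to 30.3. The only BCB− oocyte of the lowest run, complex 6, had 12.3 CPM, the lowest value of all 19.

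Jointly scaled, the oocyte level of SLC39A13 was 16.7% to 55.3% of that in its own cumulus cells in BCB+ complexes, with a median of 32.8%, and 38.2% to 110% in BCB− complexes, with a median of 61.6%. It exceeded the cumulus level in 2 of 19 complexes, both BCB−. Fitted within each class, the log2 difference between compartments was 1.55 ± 0.18 in BCB+ and 0.65 ± 0.17 in BCB−. Part of this gap is the cumulus contrast on which SLC39A13 was chosen.

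SLC39A11, another importer of internal membranes, was nearly level among BCB+ cumulus cells. Its lowest, median and highest values there were 19.5, 22.6 and 23.7 CPM, with a mean of 22.0 ± 1.496 (SD, n = 9). BCB− cumulus cells had 1.69, 15.9 and 20.7 CPM and a mean of 14.3 ± 5.35 (n = 10). The lowest, complex 68, rests on 1 count, and without it the BCB− mean was 15.7 ± 3.18. Above the highest BCB− library lay 7 of 9 BCB+ libraries, and the log2 difference was 0.58 ± 0.19 (SE), as a description.

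Oocytes held little SLC39A11, from 0.353 to 4.19 CPM in BCB+ and from 0.364 to 2.34 in BCB−. It did not pass the oocyte filter of 2 CPM in 9 libraries. The highest value was that of complex 72. Oocyte SLC39A11 was at a median of 5.65% of the cumulus level, and the 8 cumulus markers at a median of 1.06%.

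The other zinc genes with a symbol were taken from fixed lists of the family. Symbols came from shortened tables ordered by BCB p, so the genes named lean towards small p-values in that contrast and nothing is read from their shares in it. Of all 27 list genes with a symbol, 25 were above the filter in cumulus cells and 21 in oocytes. Genes without a symbol were not followed, so counts between compartments describe the named genes and not their families. Of 14 SLC39 genes, 8 had a symbol. SLC39A3 and SLC39A11 were below the filter in oocytes. The other 6 were higher in cumulus cells than in oocytes, SLC39A13 among them, beside 41.2% of the genes above the filter in both compartments. Their median log2 difference was 2.36, against −0.06 over those genes. The smallest p-values were those of SLC39A7 (2.90 ± 0.13), an importer that empties zinc from the endoplasmic reticulum, and SLC39A14 (4.19 ± 0.23), an importer of the plasma membrane. Next came SLC39A9 (2.02 ± 0.13). Jointly scaled, SLC39A14 stood at 149.9 ± 42.1 CPM in cumulus cells and 8.08 ± 5.20 in oocytes (SD, n = 19 each). Of 10 SLC30 genes, 4 had a symbol, all above the filter in both compartments, of which 3 were higher in oocytes and 1 in cumulus cells, beside 43.6% and 41.2% of all such genes. SLC30A9 was higher in oocytes (−2.29 ± 0.08), with 208 ± 22.1 jointly scaled CPM in oocytes and 42.6 ± 7.84 in cumulus cells. SLC30A4 (−1.41 ± 0.16) and SLC30A1 (−0.74 ± 0.15), the exporter of the plasma membrane, were also higher in oocytes, whereas SLC30A5 (1.15 ± 0.12), an exporter into the secretory pathway, was higher in cumulus cells. The directions of these genes were the same with library totals alone. MT1A, a metallothionein that binds zinc, was below the filter in oocytes, and its difference of 6.29 ± 0.62 is a description, as reads of near-identical metallothionein copies could be assigned to either.

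**Figure D2:**
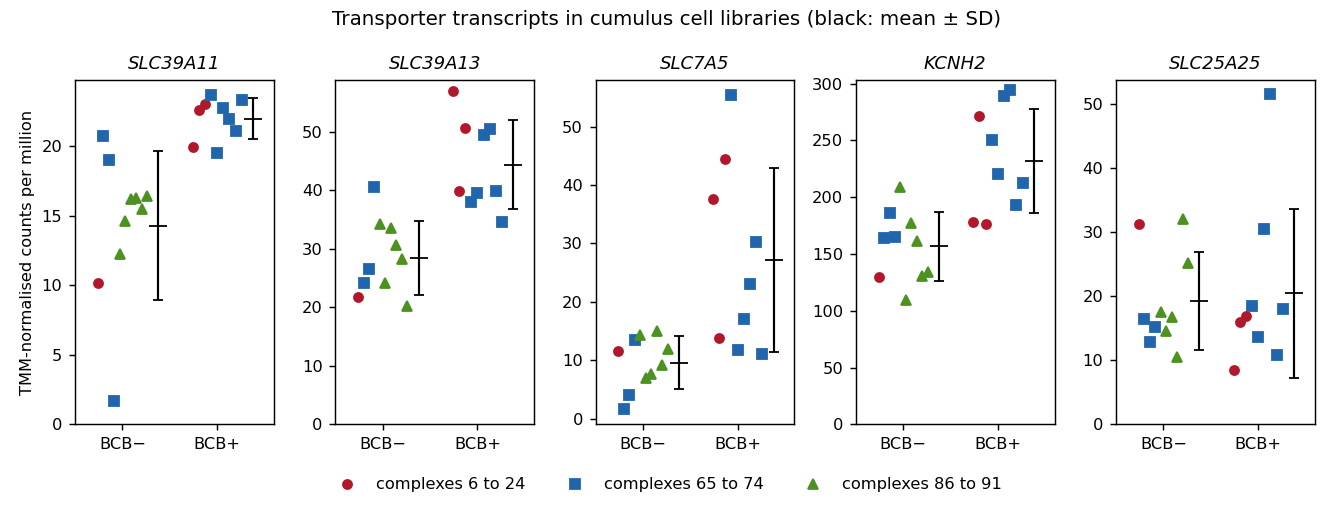
TMM-normalised CPM (y axis, from 0, a scale per gene) of the 5 genes measured in cumulus cells, 1 point per library by BCB class, with the run of complex numbers by colour and symbol and the mean ± SD in black. SLC39A11 sits between 19.5 and 23.7 CPM in BCB+, SLC7A5 spans 11.2 to 55.3 CPM in BCB+, and SLC25A25 covers the same range in both classes apart from complex 72 at 51.6 CPM.

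SLC7A5 was the most variable of the 4 genes chosen on the cumulus contrast. BCB+ cumulus cells had 11.2, 23.1 and 55.3 CPM as lowest, median and highest values. BCB− cumulus cells had 1.73, 10.4 and 15.1 CPM. Above the highest BCB− library lay 6 of 9 BCB+ libraries, with the other 3 inside the BCB− range. The means were 27.2 ± 15.8 (SD, n = 9) and 9.63 ± 4.49 CPM (n = 10), a log2 difference of 1.48 ± 0.34 (SE) as a description. The 3 lowest BCB− counts were 2 to 8 reads, in complexes 65, 66 and 68.

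Oocytes had 0 to 3.79 CPM of SLC7A5 in BCB+ and 0.329 to 5.83 in BCB−, below the filter. The highest was complex 90 (BCB−), with 117 counts, and the oocyte of complex 17 had 0 of 14619013 counts. Relative to its own cumulus cells the oocyte level ran from 0% to 46.4%, with a median of 7.14%.

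SLC3A2, the heavy chain that takes SLC7A5 to the plasma membrane, was higher in oocytes by 1.85 on the log2 scale (−1.85 ± 0.12, cumulus cells minus oocytes), with 147 ± 26.4 jointly scaled CPM in oocytes and 41.1 ± 15.4 in cumulus cells (SD, n = 19 each). By BCB class SLC3A2 differed by 0.42 ± 0.20 in cumulus cells (edgeR, FDR = 0.27) and by 0.23 ± 0.10 in oocytes (FDR = 0.87), where the test was not passed. Of 35 amino acid transporter genes, 7 had a symbol and 5 of these were above the filter in both compartments. Of the 5, 3 were higher in cumulus cells and 2 in oocytes, beside 41.2% and 43.6% of all such genes. Those in cumulus cells were SLC38A10 (3.66 ± 0.17), the cationic amino acid transporter SLC7A1 (3.03 ± 0.23) and SLC36A4 (1.61 ± 0.21). The neutral amino acid transporter SLC38A5, below the filter in oocytes, differed by 5.24 ± 0.40 as a description. SLC38A7, a glutamine transporter of lysosomes, was higher in oocytes (−0.81 ± 0.14), although within BCB+ complexes alone its difference of −0.51 did not pass (FDR = 0.0114).

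KCNH2 was well measured in cumulus cells, with 98 to 3795 counts a library. BCB+ cumulus cells had 177, 220 and 294 CPM as lowest, median and highest values. BCB− cumulus cells had 110, 163 and 209 CPM. Above the highest BCB− library lay 6 of 9 BCB+ libraries. The means of 232 ± 46.0 (SD, n = 9) and 157 ± 30.4 CPM (n = 10) gave a log2 difference of 0.57 ± 0.14 (SE), as a description.

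Oocyte KCNH2 was low, with 3.39, 7.16 and 42.6 CPM in BCB+ and 1.99, 5.13 and 16.6 in BCB−. The 3 highest, complex 72 at 42.6 CPM, complex 88 at 16.6 and complex 74 at 16.5, were also the oocytes with the most cumulus markers, at 8.68%, 3.88% and 3.25% of the cumulus level against a median of 1.06%. Oocyte KCNH2 in those complexes was 11.5%, 7.14% and 5.61% of the cumulus level, against a median of 2.70% over the 19 complexes. The part of cumulus RNA in the oocyte values was not tested. The BCB log2 difference in oocytes was 0.80 ± 0.45 (SE), which did not pass the test (edgeR, FDR = 0.89), and the BCB+ mean of 11.4 ± 12.4 CPM (SD, n = 9) became 7.49 ± 4.25 without complex 72, against 6.54 ± 4.31 in BCB− (n = 10).

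Of 14 KCNH channel and KCNE subunit genes, KCNH2 and KCNH4 had a symbol. KCNH4, another voltage-gated channel of the family, was below the filter in cumulus cells. As a description it stood at 3.58 ± 1.06 jointly scaled CPM (SD, n = 19) in oocytes and 0.465 ± 1.30 in cumulus cells, a log2 difference of −4.28 ± 0.41 (SE).

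**Figure D3:**
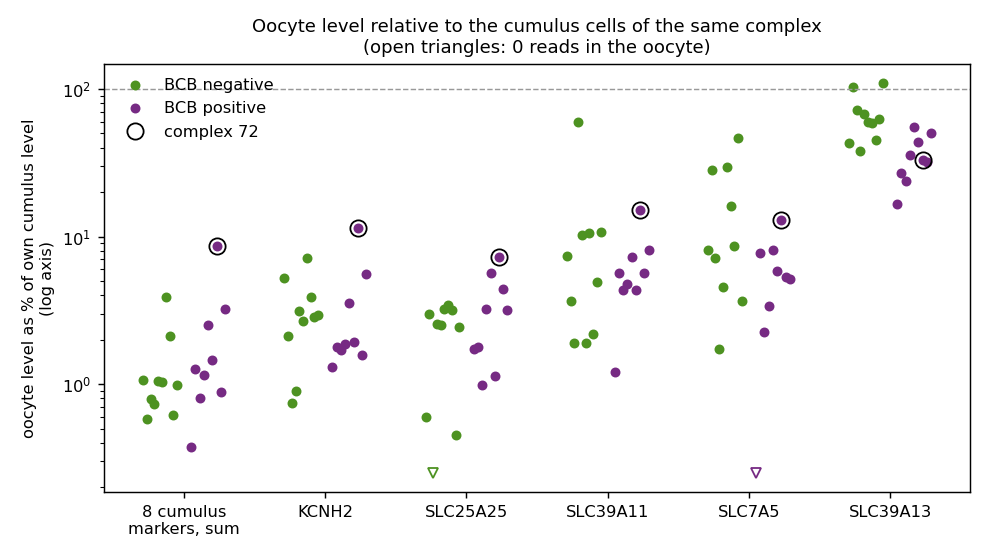
Oocyte level as a percentage of the level in the cumulus cells of the same complex (y axis, log scale, both compartments scaled together), 1 point per complex by BCB class, for the sum of 8 cumulus markers and for 5 genes. Complex 72 (ringed) is the highest for the markers at 8.68%, for KCNH2 at 11.5% and for SLC25A25 at 7.29%, and SLC39A13 lies between 16.7% and 110%.

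SLC25A25 did not separate the classes in cumulus cells. BCB+ cumulus cells had 8.44, 16.97 and 51.6 CPM as lowest, median and highest values, and BCB− cumulus cells 10.5, 16.6 and 32.1 CPM. The BCB− libraries lay wholly inside the BCB+ range. The log2 difference was 0.10 ± 0.29 (SE), which did not pass the test (edgeR, FDR = 0.89), in a comparison where 0.56% of 12313 genes passed. Complex 72 had 51.6 CPM, and without it the BCB+ mean of 20.5 ± 13.2 (SD, n = 9) became 16.6 ± 6.63, against 19.3 ± 7.58 in BCB− (n = 10).

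Oocytes held 0 to 27 counts of SLC25A25 in every library but that of complex 72, which had 119. In CPM this was 0.212 to 4.75 in BCB+ and 0 to 0.818 in BCB−, with medians of 0.704 and 0.563. The second highest BCB+ oocyte had 0.997 CPM. Without complexes 68 and 72 the difference between compartments was 5.45 ± 0.27 for SLC25A25 and 5.12 ± 0.23 for KCNH2.

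Of 9 mitochondrial nucleotide and phosphate carrier genes, 4 had a symbol. Apart from SLC25A25, 3 were above the filter in both compartments, of which 2 were higher in cumulus cells, beside 41.2% of all such genes. SLC25A3, which brings phosphate into the matrix, was higher in cumulus cells by 5.67 ± 0.47, with 176 ± 65.4 jointly scaled CPM in cumulus cells and 3.75 ± 6.70 in oocytes (SD, n = 19 each). The ADP/ATP carrier SLC25A4 differed by 0.43 ± 0.09, and by 0.01 with library totals alone (FDR = 0.92). SLC25A23, a calcium-regulated ATP-Mg carrier like SLC25A25, differed by −0.15 ± 0.17 between cumulus cells and oocytes, short of the threshold (edgeR, FDR = 0.38), with 12.5 ± 5.67 jointly scaled CPM in cumulus cells and 13.5 ± 3.14 in oocytes. With library totals alone SLC25A23 passed, at −0.58 ± 0.16 (FDR = 0.000894). The median gene moved from −0.14 to −0.55 between these scalings. Relative to it SLC25A23 was at −0.01 with TMM and −0.03 with library totals alone, and SLC25A4 at 0.58 and 0.56.

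The 19 oocyte libraries held 4193 counts of SLC17A3 among 337191649 and the 19 cumulus libraries 9 among 92469349. SLC17A3 was below the filter in cumulus cells, so the levels are a description. Jointly scaled, they were 11.8 ± 8.74 CPM in oocytes and 0.496 ± 1.74 in cumulus cells (SD, n = 19 each), where complex 68 had 7.57 CPM from 4 counts. In 14 of 19 cumulus libraries no read was counted. Of the 9 cumulus reads, 4 were in complex 68, 2 in complex 91 and 1 each in complexes 72, 74 and 89. BCB+ cumulus libraries held 2 counts in all and BCB− cumulus libraries 7, or 3 without complex 68.

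In BCB+ oocytes the lowest, median and highest SLC17A3 levels were 7.20, 16.9 and 39.3 CPM. In BCB− oocytes they were 4.40, 6.39 and 19.2 CPM. Above the highest BCB− oocyte lay 4 of 9 BCB+ oocytes, and 7 of 10 BCB− oocytes lay at or below the lowest BCB+ oocyte, with complex 87 level with it at 7.20 CPM. The means were 20.1 ± 11.6 (SD, n = 9) and 8.30 ± 4.98 CPM (n = 10), a log2 difference of 1.27 ± 0.34 (SE) as a description, beside the 0% of 12753 genes that passed in this comparison. No gene passed, although 711 had an unadjusted p under 0.05, and 0 passed with DESeq2.

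The 2 highest BCB+ oocytes were complexes 17 and 24, at 39.3 and 33.5 CPM, and the third of that run, complex 19, had 12.5. The 6 BCB+ oocytes of complexes 69 to 74 had 7.20 to 28.6 CPM, and the 3 BCB− oocytes of complexes 65 to 68 had 4.40 to 15.2. Within complexes 65 to 74 the log2 difference was 0.74 ± 0.49 (SE), with the run as a covariate 1.06 ± 0.49, and without complex 72 it was 1.37 ± 0.34. SLC17A3 was the only gene with a symbol among 9 of the SLC17 list.

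**Figure D4:**
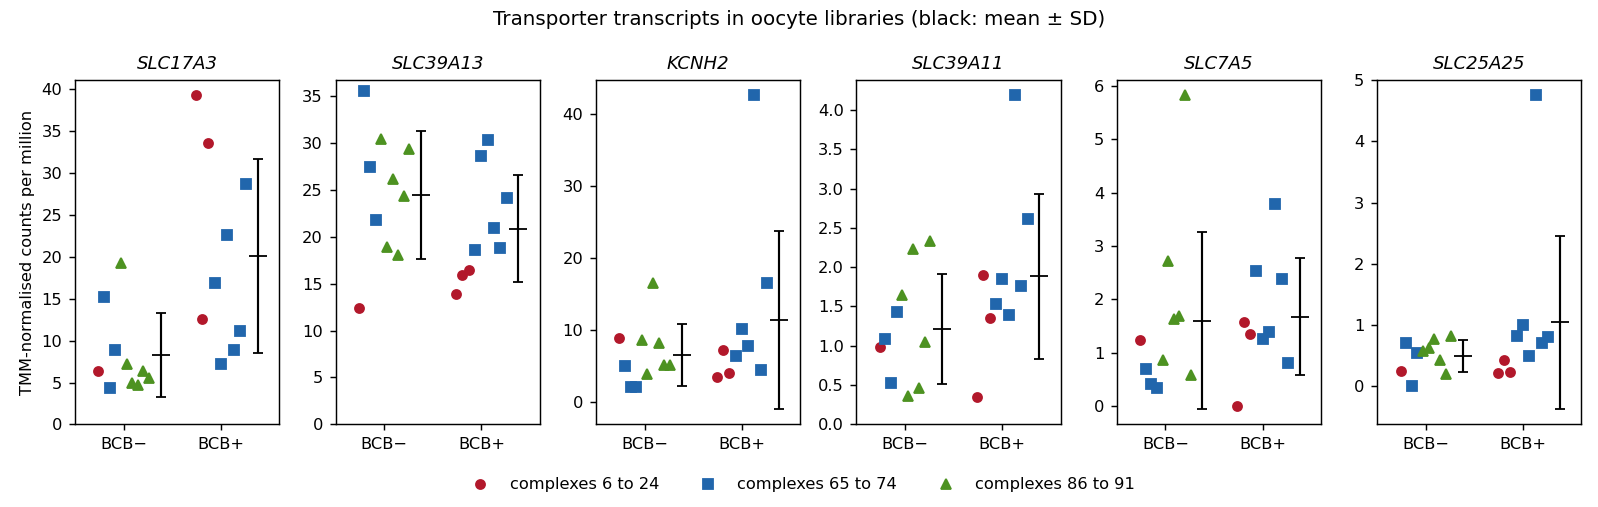
TMM-normalised CPM (y axis, a scale per gene) of the 6 genes in oocytes, 1 point per library by BCB class, with the run of complex numbers by colour and symbol and the mean ± SD in black. SLC17A3 and SLC39A13 reach 39.3 and 35.5 CPM, and complex 72 is the highest point for KCNH2 at 42.6 CPM, SLC39A11 at 4.19 and SLC25A25 at 4.75.

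Across the BCB classes in cumulus cells, 5 of 6 genes passed the filter and 0 of those 5 had an FDR below 0.01 with TMM and the quasi-likelihood test, beside 0.56% of all genes (5 higher and 64 lower in BCB+). With DESeq2's Wald test 4 of the 5 had an FDR below 0.01, beside 2.96% of all genes. With library totals alone and edgeR's likelihood-ratio test 4 of the 5 did so as well, beside 20.4% of all genes. The latter called 2366 genes higher and 150 lower. With TMM and the quasi-likelihood test but no filter, SLC39A13 had an FDR below 0.01 (0.76 ± 0.16), beside 0.64% of all genes. Because these 4 genes were chosen on this contrast, no such count is evidence about them. Relative to the 0.46 by which the median gene rose with library totals alone, SLC7A5 was 1.48 higher, SLC39A13 0.65, KCNH2 0.60, SLC39A11 0.55 and SLC25A25 0.14.

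As a description, SLC39A13 was between 0.50 and 0.76 higher in BCB+ over the fits that used TMM or DESeq2 size factors, and KCNH2 between 0.49 and 0.68. SLC39A11 was between 0.45 and 0.69, and SLC7A5 between 1.40 and 2.20, with its highest value within complexes 65 to 74 (2.20 ± 0.76 SE). SLC25A25 was 0.69 ± 0.50 higher in BCB+ within complexes 65 to 74 and 0.30 lower (−0.30 ± 0.42) with the log10 library total as a covariate, and neither passed (edgeR, FDR = 0.54 and 0.86).

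**Figure D5:**
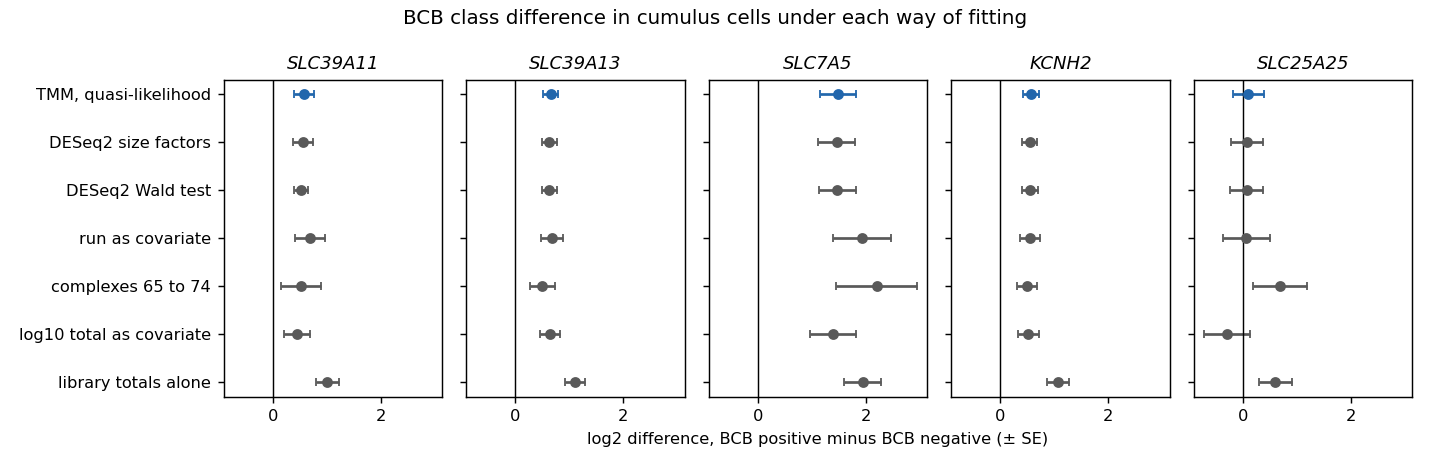
Log2 difference between BCB+ and BCB− cumulus cells (x axis) with its standard error, for 5 genes under 7 ways of fitting (y axis). SLC39A11, SLC39A13, SLC7A5 and KCNH2 lie right of 0 in each, from 1.01 to 1.94 with library totals alone and the likelihood-ratio test, and SLC25A25 moves from 0.10 to −0.30 with the library total as a covariate.

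Of the named transport genes, 25 were measured in cumulus cells, 5 of the 6 genes included, and 0 passed in the BCB contrast, beside 0.56% of all genes. In oocytes 21 were measured and 0 passed, beside 0% of all genes, so nothing is read from either count. SLC39A14 differed by 0.55 ± 0.14 in cumulus cells (edgeR, FDR = 0.038) and by −0.03 ± 0.35 in oocytes (FDR = 0.996). SLC30A1 differed by −0.07 ± 0.23 in cumulus cells (FDR = 0.90) and by −0.27 ± 0.16 in oocytes (FDR = 0.89). SLC25A23 differed by 0.25 ± 0.29 in cumulus cells (FDR = 0.67) and 0.12 ± 0.16 in oocytes (FDR = 0.95).

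The BCB difference in cumulus cells minus that in oocytes was −1.03 ± 0.61 (SE) for SLC25A25 on the log2 scale, and −0.42 ± 0.48 without complexes 68 and 72. Its oocyte side rests on values below the filter, and the other genes were chosen on 1 of the 2 contrasts, so each value is a description. Of 14898 genes, 1.73% passed in this fit, which ignores the pairing by complex, and 0.0134% with a replicate block by complex. The difference was 0.90 ± 0.24 for SLC39A13, 1.46 ± 0.66 for SLC7A5, −0.22 ± 0.51 for KCNH2, −0.03 ± 0.39 for SLC39A11 and −4.20 ± 1.30 for SLC17A3, where the last rests on 9 cumulus counts. With library totals alone KCNH2 was at 0.26 ± 0.51 and SLC39A11 at 0.40 ± 0.47, but the median gene moved from −0.07 to 0.38, and relative to it KCNH2 went from −0.15 to −0.11 and SLC39A11 from 0.04 to 0.03. Without complexes 68 and 72, where the median gene was at 0.01, KCNH2 was at 0.52 ± 0.40 and SLC39A11 at 0.16 ± 0.42.

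Runs of complex numbers were compared within a BCB class, so that class did not enter. In BCB− complexes depth moved with the run. Cumulus totals were 1103200 to 1772144 in the 4 complexes of lower number and 2164674 to 8013318 in complexes 86 to 91, and oocyte totals were 9389803 to 16345963 and 19195112 to 29810354, so that run and depth cannot be told apart there. Of the 6 genes, 5 were measured in each comparison of cumulus cells, 3 in that of BCB− oocytes and 4 in that of BCB+ oocytes, and 0 of them passed. In BCB− cumulus cells, complexes 86 to 91 were set against the 4 of lower number, and 0% of 12604 genes passed by edgeR (663 had an unadjusted p under 0.05, and DESeq2 called 6). SLC7A5 had the difference farthest from 0 among the 5 genes there, at 0.60 ± 0.50 (FDR = 0.97), which was 0.26 without complex 65, 0.37 without complex 66, 0.90 without complex 68 and 0.98 without complex 6. In BCB− oocytes, where 0.0462% of 12988 genes passed, KCNH2 differed by 0.79 ± 0.49 (FDR = 0.33), or 0.43 without complex 88 and 1.37 without complex 6. SLC39A13 differed by 0.01 ± 0.26 (FDR = 0.98) and SLC17A3 by −0.13 ± 0.44 (FDR = 0.88).

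In BCB+ cumulus cells, complexes 69 to 74 were set against 17 to 24, and 0.0546% of 12813 genes passed. Depth moved with the run in part here as well. Cumulus totals were 3585944 to 5305541 in complexes 17 to 24 and 4386946 to 10430148 in complexes 69 to 74. SLC25A25 was at 8.44, 15.9 and 16.97 CPM in the 3 complexes of the lower run and at 10.8 to 51.6 in the 6 of the higher, a difference of 0.78 ± 0.49 (edgeR, FDR = 0.38), or 0.40 without complex 72. The phosphate carrier SLC25A3 passed in this comparison, at 1.37 ± 0.17 (FDR = 0.0091), but 0 genes passed when any 1 of complexes 17, 24, 69, 70, 71 and 73 was left out. In BCB+ oocytes 0% of 13264 genes passed (2592 had an unadjusted p under 0.05, and DESeq2 called 393). SLC39A13 differed by 0.62 ± 0.21 (edgeR, FDR = 0.14). KCNH2 differed by 1.61 ± 0.71 (FDR = 0.25), and by 0.89 without complex 72. SLC17A3 differed by −0.85 ± 0.45 (FDR = 0.33), and by −0.54 without complex 17. SLC7A5 was above 2 CPM in complexes 69, 72 and 73 alone, all of the higher run, so its difference was set by the filter and is not given.

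Each gene's oocyte level was then related to its level in the cumulus cells of the same complex, over 19 complexes on log2(CPM + 1), and none of the 6 relations passed after adjustment. SLC25A25 had the highest coefficient, with Pearson's r = 0.50 (permutation p = 0.0369, or 0.139 adjusted over 6 genes). Its Spearman's rho was 0.22 (permutation p = 0.375, or 0.508 adjusted). Without the 2 complexes farthest from the median cumulus level its r was −0.17, so that the relation rests on those complexes. Within the class its r was 0.74 in BCB+ and −0.08 in BCB−, and without complexes 68 and 72 it was −0.01. The r of KCNH2 was 0.46 (permutation p = 0.0462, or 0.139 adjusted), its rho was 0.38 (permutation p = 0.116, or 0.483 adjusted), and its r was 0.23 without the 2 farthest complexes. Its r was 0.62 in BCB+, 0.12 in BCB−, 0.72 within complexes 65 to 74 and 0.79 within the 6 complexes of 86 to 91.

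The other 4 coefficients were smaller, at r = 0.12 for SLC39A11, 0.14 for SLC7A5, −0.16 for SLC17A3 and −0.23 for SLC39A13, each with an adjusted permutation p of 0.599. Their rho was 0.34, 0.16, −0.17 and −0.28 in that order, with adjusted permutation p of 0.483 to 0.508. The SLC17A3 coefficient has 14 cumulus values at 0. The co-expressed pairs in which SLC25A25 and KCNH2 had been listed are given as a description. Cumulus SLC25A25 and oocyte MMP25, a membrane-bound metalloproteinase gene, had r = 0.88 over 19 complexes when raw counts were scaled only by the TMM factor, 0.66 on CPM without TMM and 0.37 on CPM with TMM. For oocyte KCNH2 and cumulus ENSBTAG00000046937 the coefficients were 0.87, 0.66 and 0.42 in the same order. Within a class, on CPM with TMM, the KCNH2 pair had 0.72 in BCB+ and 0.74 in BCB−. The SLC25A25 pair had 0.79 in BCB+ and 0.37 in BCB−. Division by the TMM factor alone leaves the library total in both values, and its part in the coefficients was not tested.

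Genes most like each of the 6 were sought across the 19 libraries of 1 compartment, with BCB class means removed, by Pearson's r over all genes that passed the filter. Of the 3 nearest for each gene, 8 of 18 had a symbol. In cumulus cells KCNH2 was nearest to PCNX3 (r = 0.81) and also near FOXP4 (0.80), SLC39A13 was near REEP2 (0.80) and TMEM161A (0.79), and SLC25A25 was near BRD2 (0.75). SLC39A11 was near TCEAL1 (r = 0.92), but within BCB+ that coefficient was −0.60 and within BCB−, which holds complex 68, it was 0.95. None of the 3 nearest to SLC7A5 had a symbol. In oocytes SLC17A3 was nearest to POLDIP2 (0.82) and near TEX30 (0.79). Between the 5 cumulus genes themselves the coefficients ran from −0.48 for SLC39A11 and SLC39A13 to 0.35 for SLC39A13 and SLC7A5. Within a class some were larger. KCNH2 and SLC25A25 had 0.78 within BCB+ and −0.44 within BCB−, and KCNH2 and SLC39A13 had −0.12 within BCB+ and 0.60 within BCB−. All these values share the libraries' depth and scaling.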

How the data were processed

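RNA of 19 single oocytes and of the cumulus cells of the same complexes was made into full-length cDNA without molecular identifiers and sequenced as paired ends. The authors trimmed the reads, aligned them to ARS-UCD1.2 with HISAT2 2.1.0, removed duplicates and assigned them to Ensembl genes with featureCounts 1.6.0 (versions per the submitters' processing notes). The deposited values are raw counts per gene, not normalized. Samples were grouped by the labels' tissue and BCB class, and an oocyte was paired with its cumulus cells by the complex number. No column was left out (0 unused).

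The members and lists were chosen with earlier results of these data known. The listed genes named were those with an FDR below 0.01, up to the 4 smallest p per list and contrast. The partners SLC3A2, SLC39A14, SLC30A1 and SLC25A23 were named as well. So were SLC36A4 and SLC38A7, which lay outside the 4 smallest p of their list. SLC25A24 and MT2A matched no symbol. Symbols came from the study's tables, for 4934 identifiers.

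Genes with a CPM above 2 in at least 9 libraries were kept (at least 4 or 3 in the comparisons of runs). They were tested with TMM and edgeR 4.0.16 (robust quasi-likelihood, R 4.3.3) at an FDR of 0.01, over the libraries of 1 compartment for BCB class and over all 38 between compartments, with DESeq2 1.42.0 as an alternative. Genes above the filter in 1 compartment only were given without a test between compartments, and so was the difference of the BCB contrast for SLC25A25, for which a test had been planned. The SE is the log2 difference divided by the root of F. Relations used 100000 permutations, two-sided, with Benjamini-Hochberg adjustment, in Python 3.11.15 with scipy 1.17.1. On simulated counts, the cumulus BCB comparison over 12313 genes recovered 48% of genes changed by a factor of 2 and 95% of those changed by a factor of 4, and that of runs in BCB− cumulus cells over 12604 genes 1% and 38%. PCR reads are not independent molecules.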

Additional observations from a re-analysis of the deposited data

Results flagged for a closer look

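In groups of 9 or 10 libraries, the highest or lowest value was set against its nearest neighbour by Dixon's ratio at the 95% level. There were 24 groups (6 genes, both compartments, both BCB classes), of which chance flags about 5% if values are normally distributed. The CPM were not put on a log scale and some groups hold values at or near 0, so the rate by chance may be higher here. In 5 groups the highest library stood apart. In BCB+ oocytes, complex 72 had 42.6 CPM of KCNH2 against 16.5 in the next library, and 4.75 CPM of SLC25A25 against 0.997. This oocyte also had the most cumulus markers, at 8.68% of the cumulus level, and their part in these values was not tested. In BCB− oocytes, complex 88 had 16.6 CPM of KCNH2 against 8.89, with cumulus markers at 3.88%. In BCB− oocytes, complex 90 had 5.83 CPM of SLC7A5 against 2.73, from 117 counts. In BCB− cumulus cells, complex 68 had 6.75 CPM of SLC17A3 against 1.26, from 4 counts in the library with the lowest total. Its oocyte markers were at 4.92% of the oocyte level, against a median of 1.45% over the 19 cumulus libraries, and it had the most ZP2. Cumulus complexes 65 and 66 had oocyte markers at 5.63% and 4.22%, with 0 counts of SLC17A3 in each. The part of oocyte RNA in the value of complex 68 was not tested.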

How the results depend on the processing

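Low counts limit the smallest cumulus libraries, cumulus SLC17A3 and the oocyte values of SLC39A11, SLC7A5 and SLC25A25. The differences of KCNH2 and SLC39A13 between compartments kept their direction and stayed below an FDR of 0.01 in every alternative run for them. The other 4 genes entered that fit through 1 compartment, so nothing is read from theirs. With a replicate block by complex, 13055 genes passed between compartments, against 13172 without it, and the difference of the BCB contrast fell from 258 genes to 2. KCNH2 and SLC39A13 kept their calls between compartments with the block. The numbers pair an oocyte with its own cumulus cells by design, with correlations of their deviations from −0.0189 to 0.215.

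Between BCB classes in cumulus cells 69 genes passed, and 364 with DESeq2, 2516 with library totals alone and edgeR's likelihood-ratio test (scaling and test both changed), 164 without a filter, 115 with the run as a covariate, 2 with the log10 library total as a covariate, and 29 without complex 68 (added after the data were seen). For the difference of the BCB contrast, 646 passed with library totals alone and 71 without complexes 68 and 72 (also added afterwards). In the comparisons of runs, DESeq2 called 6 and 621 genes in BCB− cumulus cells and oocytes and 453 and 393 in BCB+, against 0, 6, 7 and 0. Without a filter 3 passed in BCB− cumulus cells, 100 in BCB+ cumulus cells and 2 in BCB+ oocytes. Leaving out each complex gave 0 to 258 in BCB− oocytes, highest without complex 6, 0 to 29 in BCB+ cumulus cells, highest without complex 19, and 0 in both other comparisons.

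Signs changed for small differences. By BCB class, cumulus SLC25A25 went to −0.30 with the log10 total, cumulus SLC25A23 to −0.0788 in complexes 65 to 74, and cumulus SLC30A1 to 0.43 with library totals alone and the likelihood-ratio test (−0.03 relative to the median gene, which moved to 0.46), 0.0415 without a filter, 0.35 with the run and 0.11 in complexes 65 to 74. Oocyte SLC39A14 went to 0.22 with the run, 0.0760 with the log10 total and 0.33 in complexes 65 to 74, and oocyte SLC30A1 to 0.0556 with the run and 0.19 in complexes 65 to 74. With library totals alone and the likelihood-ratio test, SLC39A14 (1.03) and SLC3A2 (0.89) passed by BCB class in cumulus cells. Relative to the median gene they were at 0.57 and 0.43, against 0.56 and 0.43 with TMM. Between runs, KCNH2 in BCB− cumulus cells went to 0.0700 without a filter and SLC39A11 in BCB+ cumulus cells to −0.00229 with DESeq2. Leaving out each complex gave, in BCB− cumulus cells, −0.15 to 0.0450 for KCNH2, −0.17 to 0.42 for SLC25A25, −0.0232 to 0.25 for SLC39A13 and −0.11 to 0.47 for SLC39A11, in BCB− oocytes −0.21 to 0.26 for SLC39A13 and −0.60 to 0.29 for SLC17A3, and in BCB+ cumulus cells −0.0403 to 0.0522 for SLC39A11.

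For the oocyte level against the level in the own cumulus cells, division by the TMM factor alone gave r = 0.56 for KCNH2 and r = 0.56 for SLC25A25 (adjusted permutation p = 0.043 for both) and r = 0.0937 for SLC39A13. The cause of these changes was not tested.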
